A study of Mus musculus with 4 samples.

Results

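Pericytes and vascular smooth muscle cells, the mural cells that wrap the blood vessels of the brain, were followed through 10 genes that mark them: *Acta2*, *Myh11*, *Tagln*, *Cnn1*, *Des*, *Pdgfrb*, *Notch3*, *Rgs5*, *Abcc9* and *Kcnj8*. The genes were chosen by name, and all 10 were among the 33981 genes in the tables. RNA came from a coronal slab of brain that took in the prefrontal cortex of male C57BL/6J mice, 3 to 5 months old, with 6 libraries in each of 4 groups. Normotensive (NT) mice were infused under the skin with saline and hypertensive (HT) mice with a daily 0.28 mg/kg of angiotensin II, until collection on day 28. On day 7 all mice had surgery and an injection of the dye Rose Bengal, and only the stroke mice were then illuminated over the prefrontal cortex, which clots the vessels under the light. The groups are named by pressure and surgery, from NT + Sham to HT + Stroke. Hypertension was modelled by an infused vasoconstrictor peptide, and vessels were perfused to remove blood before collection. Each library was taken as 1 mouse, because the tables number the libraries of a group and the labels hold 1 entry per group, so that *P* values measure the spread between these libraries.

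Smooth muscle cells ring arteries and arterioles and set their diameter by contracting, whereas pericytes sit on capillaries. Both need platelet-derived growth factor from the endothelium, received by the receptor encoded by *Pdgfrb*, and the Notch3 receptor maintains arterial smooth muscle. Contraction runs on smooth muscle actin, smooth muscle myosin and their regulators, and in mural cells of the brain an ATP-sensitive potassium channel made of the *Kcnj8* pore and the *Abcc9* regulatory subunit links metabolism to membrane potential. After brain injury, PDGF receptor beta is also carried by fibroblast-like cells of the scar. In a bulk sample, a difference in the number of cells of a type and a difference in RNA per cell cannot be told apart.

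Total counts per library were 15922919 to 24865998. The 6 neuron markers summed to 5317 to 7927 CPM (read counts scaled to library size by the TMM method), as any brain tissue would hold, and no marker of the prefrontal cortex itself was examined. Genes of neighbouring regions varied widely between libraries of the same group, with 6 olfactory bulb genes at 39.9 to 531 CPM and 7 striatal genes at 332 to 2612 CPM, and the part of such differences in the results was not tested. Genes of red blood cells, 6 in all, summed to 42.6 to 313 CPM. HT + Stroke library 6 stood apart from the others. It held 367 counts of *Ckm*, the creatine kinase of skeletal muscle, against 1 to 12 in the other 23 libraries, 585 of *Myh4* against 1 to 15 and 597 of *Tnnt3* against 0 to 15, and its 6 skeletal muscle markers summed to 218 CPM against at most 22.0 elsewhere. HT + Stroke libraries 1 and 6 also had the lowest macrophage and microglia levels of the 12 stroke libraries, with 10 markers summing to 328 and 327 CPM against 601 to 2003 CPM in the other 10. Among the sham libraries, HT + Sham library 6 was high in these markers, at 636 CPM, where the other sham libraries had 216 to 286 CPM.

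Per length of transcript, the 10 genes spanned about 2 orders of magnitude (FPKM, reads scaled to gene length and library size, as deposited). *Acta2* had the highest level at 22.0 FPKM (mean over 24 libraries, from 12.3 to 33.3 FPKM), followed by *Rgs5*, a regulator of G protein signalling and a leading pericyte marker, at 18.4 ± 1.14 FPKM. The order of these neighbours was not fixed, since *Acta2* was above *Rgs5* in 18 of 24 libraries and the ranges overlapped. A gap followed, with *Rgs5* at 16.8 FPKM or more and *Pdgfrb* at 7.27 FPKM or less in every library. *Pdgfrb* averaged 4.63 FPKM, *Notch3* 3.27 FPKM and *Myh11* 2.31 FPKM. Each of *Pdgfrb* and *Notch3* lay above the next gene in 24 of 24 libraries, although their ranges overlapped across libraries. *Kcnj8* and *Des* both averaged 1.58 FPKM and could not be ordered, with *Kcnj8* higher in 15 of 24 libraries. *Cnn1* followed at 1.02 FPKM, *Abcc9* at 0.588 FPKM and *Tagln* at 0.195 FPKM, and the last of these did not overlap *Abcc9* in any library. The channel pore *Kcnj8* was thus listed at a higher level per length than its partner *Abcc9*, whose highest value was 0.762 FPKM against a lowest *Kcnj8* value of 0.994 FPKM.

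**Figure D1:**
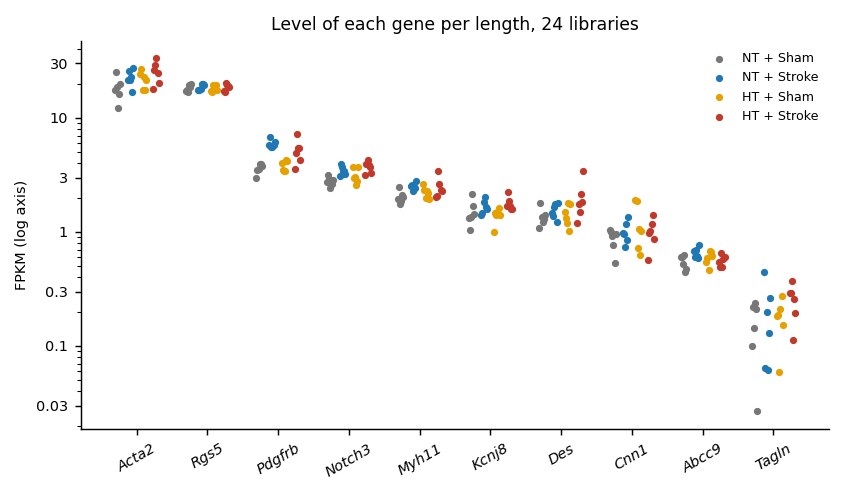
Level of each of the 10 genes in FPKM (log axis), with 1 point per library and the 4 groups side by side in colour (6 libraries each). *Acta2* and *Rgs5* lie above the other 8 genes in every library, and *Tagln* lies lowest, between 0.0269 and 0.443 FPKM.

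The level of *Tagln*, which encodes transgelin, an actin-binding protein abundant in smooth muscle, stood far below that of *Acta2* although both mark the same cells. *Tagln* (ENSMUSG00000032085, GRCm38 chromosome 9, 45929619 to 45936058, minus strand) had 1 to 16 counts per library and 174 counts over all 24. In GENCODE M21, 1241 of its 1988 exon bases (62.4%) are shared with the antisense gene *Gm48529*, which had 6 to 37 counts per library, and 108 (5.43%) with *Pcsk7* on the same opposite strand. The sources used here do not say that counting used strand, so reads of these genes cannot be told apart, and the part of this overlap in the low *Tagln* count was not tested. The other members shared at most 6.03% of their exon bases with another gene (*Notch3* with antisense *Gm17276*), and *Acta2*, *Myh11*, *Cnn1*, *Pdgfrb*, *Rgs5* and *Kcnj8* shared none. *Tagln* was the only member with too few counts to be tested, so 9 of the 10 members entered each test below.

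After stroke in normotensive mice, 3 of the 9 tested members were higher than in sham mice, namely *Pdgfrb*, *Notch3* and *Myh11*. NT + Stroke vs NT + Sham tested 16835 genes in all, of which 14.4% were called higher and 11.5% lower (adjusted *P* under 0.05 in edgeR's quasi-likelihood test with Benjamini-Hochberg adjustment), so that 3 of 9 stands beside a wide background. No member was called lower, 8 of the 9 had a positive log2 fold change, and their median was 0.22 on the log2 scale against -0.01 over all genes tested. *Pdgfrb* alone did not overlap between the groups, which 7.78% of all genes tested did in this direction.

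*Pdgfrb* (ENSMUSG00000024620, GRCm38 chromosome 18, 61045150 to 61085061, plus strand), the PDGF receptor of mural cells, had 16.6 CPM in the lowest, 20.1 CPM in the median and 22.0 CPM in the highest library of NT + Sham. In NT + Stroke the lowest, median and highest were 29.8, 30.1 and 36.4 CPM, so every stroke library lay above every sham library. It rose 1.58-fold (log2 fold change 0.66, SE 0.08, adjusted *P* = 6.56e-06). Leaving out each of the 12 libraries in turn gave log2 fold changes of 0.63 to 0.70 and an adjusted *P* of at most 3.38e-05. In HT + Sham *Pdgfrb* spanned 18.6 to 23.2 CPM, a range much like that of NT + Sham, and in HT + Stroke 19.2 to 36.6 CPM, so the hypertensive stroke mice covered both the sham and the stroke levels. The 2 lowest HT + Stroke values, 19.2 CPM in library 1 and 23.3 CPM in library 6, came from the libraries with the fewest macrophage and microglia counts.

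*Notch3* (ENSMUSG00000038146, GRCm38 chromosome 17, 32120820 to 32166880, minus strand), the Notch receptor of arterial smooth muscle, was 19.7, 22.5 and 25.6 CPM in NT + Sham (lowest, median and highest) and 23.6, 26.7 and 31.2 CPM in NT + Stroke. The groups overlapped, but all 6 stroke libraries were above the sham median. The rise was 1.21-fold (log2 fold change 0.28, SE 0.08, adjusted *P* = 0.0149). *Myh11* (ENSMUSG00000018830, GRCm38 chromosome 16, 14194535 to 14291372, minus strand), the heavy chain of smooth muscle myosin, went from 13.4, 15.1 and 18.8 CPM to 16.8, 18.4 and 20.5 CPM, again with 6 of 6 libraries above the sham median. It rose by a like amount (log2 fold change 0.27, SE 0.08, adjusted *P* = 0.0244), and this call was lost without NT + Stroke library 6 (adjusted *P* = 0.0613), with all genes of at least 1 count tested (0.0568) and with all 4 groups in one fit (0.0657).

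**Figure D2:**
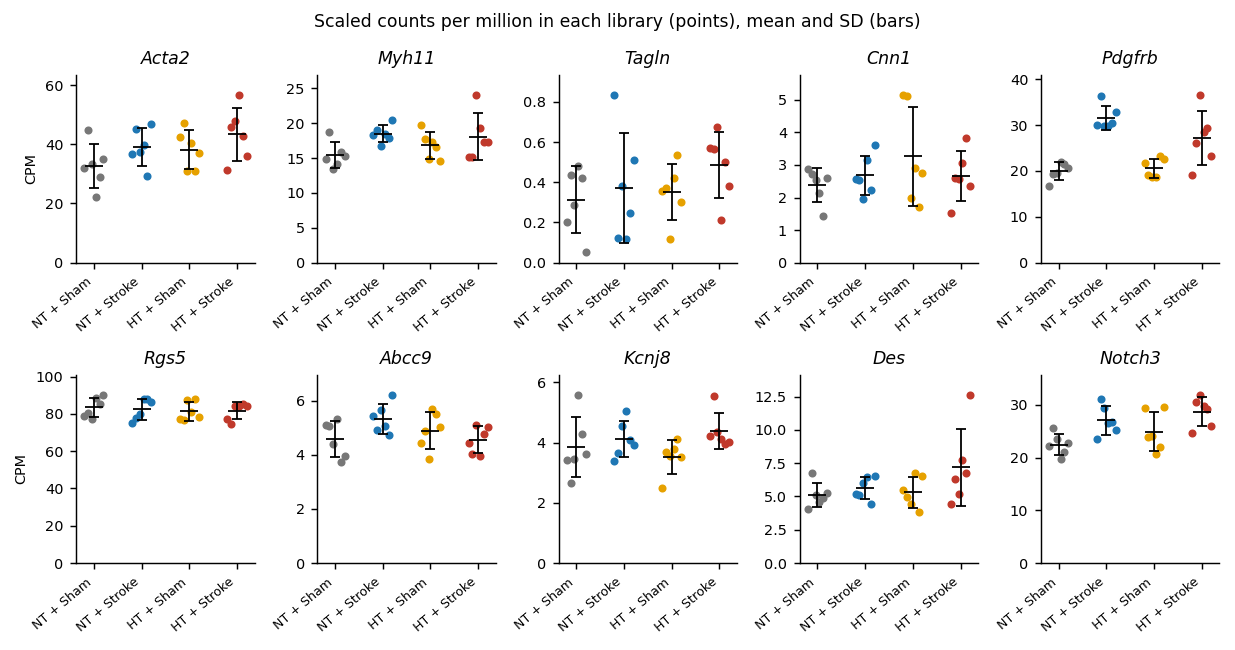
CPM (counts scaled to library size) of the 10 genes, with 1 point per library, the mean as a horizontal bar and the SD as whiskers (6 libraries per group, each axis from 0). *Pdgfrb* in NT + Stroke (29.8 to 36.4 CPM) lies clear of NT + Sham (16.6 to 22.0 CPM), *Rgs5* is level across the groups, and 1 HT + Stroke library lies far above the rest in *Des* at 12.6 CPM.

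The remaining contractile genes did not pass the test in this comparison. *Acta2* (ENSMUSG00000035783, GRCm38 chromosome 19, 34241090 to 34255336, minus strand), smooth muscle actin, was 22.1, 32.7 and 44.8 CPM in NT + Sham and 29.2, 38.6 and 47.0 CPM in NT + Stroke (lowest, median and highest), with a log2 fold change of 0.27 (SE 0.15, adjusted *P* = 0.215). Its estimate was close to that of *Myh11*, but its spread was wider, with an SE of 0.15 against 0.08, and without NT + Sham library 2, the highest sham library, it passed (log2 fold change 0.39, adjusted *P* = 0.0402). *Cnn1* (ENSMUSG00000001349, GRCm38 chromosome 9, 22099216 to 22109630, plus strand), calponin, an inhibitor of the myosin motor, had 27 to 92 counts per library and a log2 fold change of 0.19 (SE 0.19, adjusted *P* = 0.533). *Des* (ENSMUSG00000026208, GRCm38 chromosome 1, 75360329 to 75368579, plus strand), the intermediate filament of muscle and pericytes, had a log2 fold change of 0.15 (SE 0.14, adjusted *P* = 0.480). For *Tagln*, a fit that kept every gene with any count gave 0.23 on the log2 scale with an SE of 0.50, too imprecise to place.

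Among the members, the pericyte markers *Rgs5*, *Abcc9* and *Kcnj8* gave no call in this comparison. Of 20 further pericyte genes, described below, 10 were called higher and 1 lower, beside 14.4% and 11.5% of all genes tested. *Rgs5* (ENSMUSG00000026678, GRCm38 chromosome 1, 169655501 to 169695813, plus strand) had the most even level of the members, with a CV of 5.93% over all 24 libraries, and group means of 83.4 CPM in NT + Sham, 82.5 CPM in NT + Stroke, 81.4 CPM in HT + Sham and 81.6 CPM in HT + Stroke. Its log2 fold change in NT + Stroke vs NT + Sham was -0.01 (SE 0.06, adjusted *P* = 0.928), so the 0.66 of *Pdgfrb* and the value of *Rgs5*, both pericyte markers measured with SEs under 0.10, lay far apart. *Abcc9* (ENSMUSG00000030249, GRCm38 chromosome 6, 142587862 to 142702315, minus strand), the sulfonylurea receptor subunit of the channel, was 3.74, 4.72 and 5.31 CPM in NT + Sham and 4.74, 5.24 and 6.21 CPM in NT + Stroke, with 6 of 6 stroke libraries above the sham median but no call (log2 fold change 0.22, SE 0.12, adjusted *P* = 0.210). *Kcnj8* (ENSMUSG00000030247, GRCm38 chromosome 6, 142564837 to 142571614, minus strand), the neighbouring gene that encodes the pore, had 42 to 126 counts per library and a log2 fold change of 0.10 (SE 0.17, adjusted *P* = 0.703).

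Markers of other cells moved with the stroke comparison. All 10 fibroblast genes were tested and 9 were called higher, with a median log2 fold change of 1.76, and their summed level went from 309 to 357 CPM in NT + Sham to 565 to 1172 CPM in NT + Stroke, without overlap. All 10 macrophage and microglia genes, 6 of 6 genes of the meninges, 6 of 6 astrocyte genes and 3 of 6 olfactory bulb genes were called higher, and 4 of 6 neuron genes lower. In the other tissue lists 2 of 5 choroid plexus genes tested were called higher, 0 of 7 striatal and 0 of 5 red blood cell genes were called, and 1 of 2 skeletal muscle genes tested was called lower. The median log2 fold change was 1.22 for the olfactory bulb genes and 0.73 for the striatal genes. Of 10 endothelial genes 4 were called higher, with *Cdh5*, the cadherin of endothelial junctions, at a log2 fold change of 0.60 (adjusted *P* = 2.25e-04), a median of 0.17 for the list and summed levels of 395 to 451 CPM in NT + Sham that overlapped those of 399 to 521 CPM in NT + Stroke. No measured marker of these lists was at 0 throughout a group. The part of these cells in the rise of *Pdgfrb*, *Notch3* and *Myh11* was not tested.

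Within the 12 stroke libraries, *Pdgfrb* and the fibroblast genes had the highest r of 30 relations of a member with the endothelial, fibroblast or macrophage list. After each group's mean was subtracted, Pearson's r was 0.83 and Spearman's rho 0.82 (permutation *P* = 0.00454 and 0.00536, adjusted over the 30 relations 0.0932 and 0.0678), and r was 0.64 without the 2 libraries farthest from the median. *Acta2* with the macrophage and microglia genes had an r of 0.77 and a rho of 0.83 (permutation *P* = 0.00741 and 0.00174, adjusted 0.0932 and 0.0522), and an r of 0.61 without the 2 farthest libraries. None of the 30 relations had an adjusted *P* under 0.05. The corresponding r of *Rgs5* with the endothelial genes was -0.11 (adjusted permutation *P* = 0.856).

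**Figure D3:**
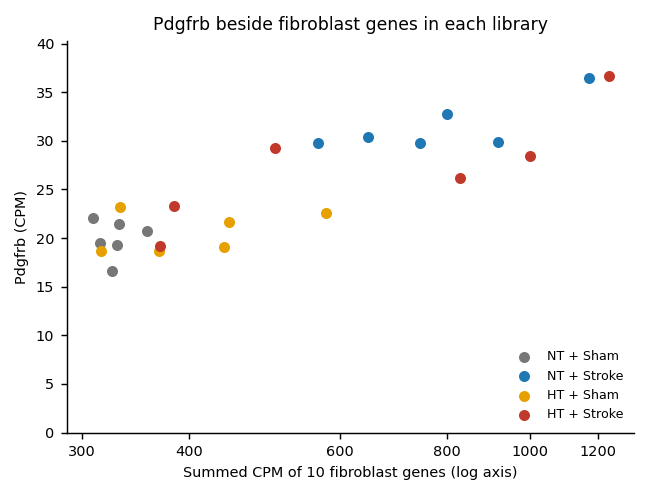
*Pdgfrb* in CPM against the summed CPM of 10 fibroblast genes (log axis), with 1 point per library coloured by group. The NT + Stroke libraries lie to the upper right, between 565 and 1172 CPM of fibroblast genes, and 2 HT + Stroke libraries with 370 and 384 CPM of fibroblast genes lie among or near the sham libraries.

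Angiotensin II gave no call among the members, in sham mice or in stroke mice. Neither HT + Sham vs NT + Sham (0% of 16581 genes called in either direction, 1332 with an unadjusted *P* under 0.05) nor HT + Stroke vs NT + Stroke (0% of 17008 genes, 1230 unadjusted) called a gene, DESeq2 called 0 in each, and 0 of 9 members had an unadjusted *P* under 0.05. The interaction of hypertension and stroke, whether the stroke difference itself differs between HT and NT mice, also called 0% of 17608 genes (1836 unadjusted, again with 0 of 9 members), whereas DESeq2 called 22 genes for it, with no member among them. In sham mice the member with the smallest adjusted *P* was *Cnn1*, with a log2 fold change of 0.45 (SE 0.27, adjusted *P* = 0.737). Its HT + Sham values went from 1.71 to 5.15 CPM, where 2 libraries lay near 5 CPM and the other 4 at or below 2.90 CPM, which NT + Sham nearly reached with 2.87 CPM. *Acta2* averaged 38.2 ± 6.49 CPM in the HT + Sham group, against 32.7 ± 7.46 CPM in NT + Sham mice, a log2 fold change of 0.22 (SE 0.15, adjusted *P* = 0.771).

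Between the stroke groups, *Abcc9* averaged 4.55 ± 0.490 CPM with hypertension and 5.33 ± 0.544 CPM without, with 6 of 6 hypertensive libraries below the normotensive median (log2 fold change -0.23, SE 0.12, adjusted *P* = 0.654). *Pdgfrb* was below the NT + Stroke median in 5 of 6 HT + Stroke libraries (log2 fold change -0.22, SE 0.12, adjusted *P* = 0.657). *Des* had the highest estimate in this comparison, 0.34 on the log2 scale (SE 0.21, adjusted *P* = 0.666), which was 0.11 without HT + Stroke library 6. The interaction was -0.26 for *Pdgfrb* (SE 0.15, adjusted *P* = 0.554) and -0.32 for *Abcc9* (SE 0.17, adjusted *P* = 0.520), so a difference in their stroke response between HT and NT mice was not called.

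**Figure D4:**
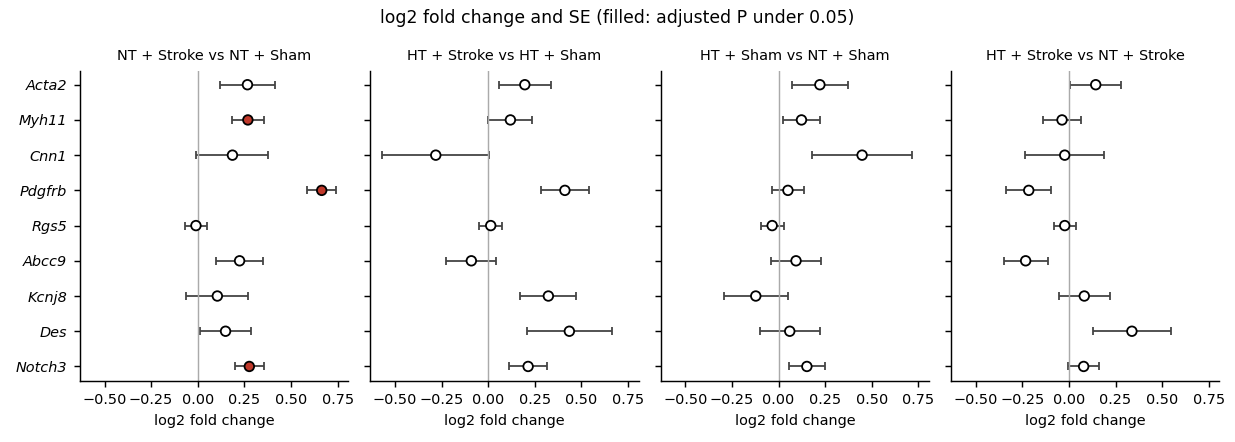
log2 fold change (points) and SE (whiskers) of the 9 tested genes in 4 comparisons, with filled points for an adjusted *P* under 0.05 (n = 6 libraries per group). Filled points stand for *Pdgfrb* (0.66), *Notch3* (0.28) and *Myh11* (0.27) in NT + Stroke vs NT + Sham, and no point is filled in the other 3 comparisons.

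With stroke and angiotensin II together, 2 of the 9 tested members rose against NT + Sham, beside 8.38% of 16749 genes called higher and 6.37% called lower. *Notch3* rose 1.29-fold, from 19.7 to 25.6 CPM to 24.7 to 31.9 CPM, with 6 of 6 libraries above the NT + Sham median (log2 fold change 0.37, SE 0.08, adjusted *P* = 0.0139). *Pdgfrb* rose 1.38-fold, with 5 of 6 libraries above the NT + Sham median (log2 fold change 0.46, SE 0.13, adjusted *P* = 0.0256), and this call was lost without NT + Sham library 1 (adjusted *P* = 0.0618) or HT + Stroke library 4 (0.0564). No member's libraries lay wholly above NT + Sham, as did 2.35% of all genes tested. *Acta2* had 31.3, 44.4 and 56.7 CPM in HT + Stroke (lowest, median and highest), over a range that overlapped NT + Sham, and its log2 fold change of 0.42 (SE 0.16, adjusted *P* = 0.102) passed without NT + Sham library 2 (0.0383) or HT + Stroke library 1 (0.0402). *Myh11* had a log2 fold change of 0.24 here (SE 0.12, adjusted *P* = 0.183). Without adjustment 4 of the 9 members were higher, as were 15.7% of all genes tested. Markers of other cells moved here too, with 9 of 9 macrophage and microglia genes tested (median log2 fold change 1.70), 7 of 10 fibroblast genes (1.44), 3 of 6 astrocyte genes (0.34) and 1 of 6 genes of the meninges (0.69) called higher, 3 of 6 neuron genes (-0.27) called lower and 0 of 10 endothelial genes called. The striatal genes had 0 of 7 called but a median log2 fold change of 1.01. The part of all these lists in the rise of *Notch3* and *Pdgfrb* was not tested. This comparison and NT + Stroke vs NT + Sham share their 6 control libraries.

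The estimate of *Des* moved with a single HT + Stroke library. Its HT + Stroke libraries had 4.44, 6.54 and 12.6 CPM (lowest, median and highest) and its NT + Sham libraries 4.08, 4.97 and 6.80 CPM, and the highest value came from library 6, the one rich in skeletal muscle markers, where the next highest of all 24 libraries was 7.78 CPM. Its log2 fold change against NT + Sham was 0.49 (SE 0.22, adjusted *P* = 0.139) and became 0.26 without library 6. Against HT + Sham it was 0.44 with the library and 0.20 without it. *Cnn1* and *Kcnj8*, which were not called either, moved as well, with log2 fold changes of 0.04 to 0.28 and 0.12 to 0.33 in HT + Stroke vs NT + Sham as each library was left out. Desmin is abundant in skeletal muscle, and *Acta1*, the actin of that tissue, had 1285 counts in this library against 161 to 372 elsewhere. The part of skeletal muscle in the *Des* value of this library was not tested.

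**Figure D5:**
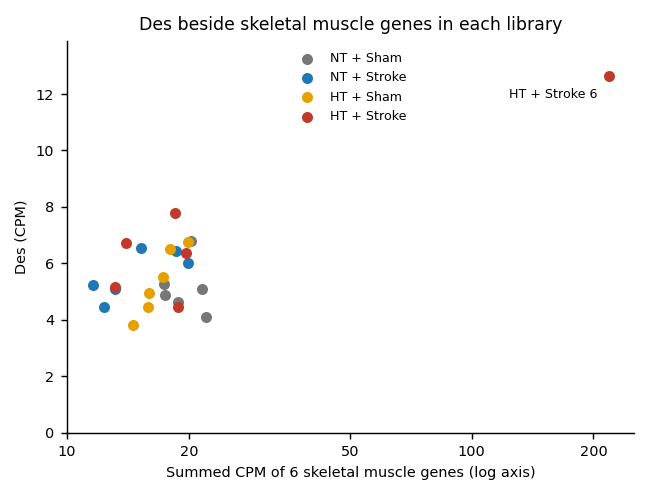
*Des* in CPM against the summed CPM of 6 skeletal muscle genes (log axis), with 1 point per library coloured by group. HT + Stroke library 6 lies alone at 218 CPM of muscle genes and 12.6 CPM of *Des*, and the other 23 libraries lie at or below 22.0 and 7.78 CPM.

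In hypertensive mice, HT + Stroke vs HT + Sham called no member, beside 0.544% of 16741 genes called higher and 0.102% lower. *Pdgfrb* was 27.2 ± 5.91 CPM against 20.6 ± 2.07 CPM, with 5 of 6 libraries above the sham median (log2 fold change 0.41, SE 0.13, adjusted *P* = 0.118). It passed with all 4 groups in one fit (adjusted *P* = 0.0266), which called 4.76% of 17608 genes higher, and without HT + Stroke library 1 (0.0341), where 2.67% of 16901 genes were called higher. DESeq2 called 907 genes in either direction in this comparison, against 108 by edgeR. The log2 fold change of *Pdgfrb* was 0.30 to 0.48 over the libraries left out. *Kcnj8* had 6 of 6 stroke libraries above the sham median, with 3.97 to 5.56 CPM against 2.49 to 4.12 CPM (log2 fold change 0.32, SE 0.15, adjusted *P* = 0.286), and *Notch3* also had 6 of 6 (log2 fold change 0.21, SE 0.10, adjusted *P* = 0.299). Without adjustment 2 of the 9 members were higher, as were 10.5% of all genes tested. No member was without overlap in this comparison, as were 0.579% of all genes tested in this direction. The macrophage and microglia genes, all 10 of which were called in normotensive mice, gave 0 calls of 10 here, and the fibroblast genes 0 of 10, but their median log2 fold changes of 1.67 and 1.03 stayed large beside the 1.996 and 1.76 of normotensive mice. The striatal genes, with 0 of 7 called, had a median log2 fold change of 1.40. That of the olfactory bulb genes, with 0 of 6 called, was -0.93. The part of these lists in the values of the members was not tested.

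Lists of other mural genes were read from the same fits. Over all genes tested, 14.4% were called higher and 11.5% lower in NT + Stroke vs NT + Sham. In HT + Stroke vs NT + Sham these shares were 8.38% and 6.37%. Of 20 further contractile genes 18 were tested in NT + Stroke vs NT + Sham, and 6 rose and 0 fell, with a median log2 fold change of 0.22 against -0.01 over all genes. The largest rises were of *Crip1*, a small LIM-domain protein also made by immune cells (7.85 ± 1.09 to 15.5 ± 4.27 CPM, log2 fold change 0.99, adjusted *P* = 2.00e-04), *Casq2*, a calcium store protein of muscle (log2 fold change 0.67, adjusted *P* = 0.0292), and *Cald1*, caldesmon, an actin-binding brake on contraction (log2 fold change 0.58, adjusted *P* = 3.95e-05). In HT + Stroke vs NT + Sham 7 of 19 tested rose, among them *Casq2* (0.88, adjusted *P* = 0.0109) and *Crip1* (0.87, adjusted *P* = 0.0156). The count was 6 without HT + Stroke library 6 and 8 without library 1, where 9.54% and 10.4% of all genes were called higher.

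Of 20 further pericyte genes, all tested, 10 rose and 1 fell in NT + Stroke vs NT + Sham, with a median log2 fold change of 0.34. The largest rises were of *Anpep*, aminopeptidase N (4.83 ± 1.21 to 17.1 ± 4.78 CPM, log2 fold change 1.82, adjusted *P* = 7.92e-06), and of the transcription factors *Tbx18* (1.14, adjusted *P* = 2.53e-04) and *Zic1* (0.89, adjusted *P* = 5.17e-05). These genes are not limited to pericytes, since *Anpep* is also carried by myeloid cells and fibroblasts and *Zic1* by cells of the meninges. The gene that fell was *Rgs4*, a regulator of G protein signalling that neurons also make (log2 fold change -0.33, adjusted *P* = 0.00821). In HT + Stroke vs NT + Sham 5 of 20 rose, beside 8.38% of all genes. The count was 6 without HT + Stroke library 6 and 7 without library 1, where 9.54% and 10.4% of all genes were called higher.

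Of 16 genes of PDGF, Notch and angiopoietin signalling to mural cells, 7 rose and 0 fell in NT + Stroke vs NT + Sham, with a median log2 fold change of 0.24. *Notch2*, a second Notch receptor of smooth muscle, had a log2 fold change of 0.89 (SE 0.11, adjusted *P* = 8.48e-06), and the Notch targets *Hey2* (0.95, adjusted *P* = 0.0191) and *Heyl* (0.78, adjusted *P* = 0.00298) were the other leading rises. In HT + Stroke vs NT + Sham 1 of the 16 rose, beside 8.38% of all genes. *Notch2* (0.46, adjusted *P* = 0.201), *Hey2* (0.20, adjusted *P* = 0.648) and *Heyl* (0.48, adjusted *P* = 0.101) were not called. The alternative channel subunits *Kcnj11* and *Abcc8*, which neurons use in place of *Kcnj8* and *Abcc9*, had log2 fold changes of -0.32 (adjusted *P* = 0.00657) and -0.25 (adjusted *P* = 0.0852) in NT + Stroke vs NT + Sham. Of 15 vasoconstrictor receptor and calcium-handling genes tested, 1 rose and 4 fell, beside 14.4% of all genes called higher and 11.5% lower. The endothelin receptor *Ednrb*, which astrocytes also carry, rose (0.64, adjusted *P* = 4.03e-05), and the cation channel *Trpc6* (-0.66, adjusted *P* = 0.00432) and the adrenergic receptor *Adra1b* (-0.62, adjusted *P* = 2.69e-05) fell. In the same comparison 4 of 6 neuron genes were called lower, with a median log2 fold change of -0.33. The part of neurons in the falls of *Trpc6* and *Adra1b* was not tested.

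Among the members, *Acta2* varied most closely with *Cnn1* from mouse to mouse. After each group's mean was subtracted from log2(CPM + 1), *Acta2* and *Cnn1* had a Pearson's r of 0.66 and a Spearman's rho of 0.74 over 24 libraries (permutation *P* = 6.40e-04 and 2.20e-04, adjusted over 45 pairs of members 0.0288 and 0.0099), and r was 0.66 without the 2 libraries farthest from the median. *Acta2* and *Myh11* had an r of 0.58 and a rho of 0.66 (adjusted permutation *P* = 0.132 and 0.0301), with an r of 0.52 without the 2 farthest. No other pair passed in either measure. *Acta2* had an r of 0.52 with *Notch3* (adjusted permutation *P* = 0.134), 0.36 with *Des* (0.439) and -0.14 with *Tagln* (0.767). The channel subunits *Abcc9* and *Kcnj8* had an r of 0.04 (adjusted permutation *P* = 0.914), and *Pdgfrb* and *Rgs5* an r of 0.29 (adjusted permutation *P* = 0.492). Among 13412 genes with a mean of at least 1 FPKM, the non-members whose pattern over the 24 libraries was most like that of *Acta2* were *Vamp5* (r = 0.88), *Myl9* (0.86), *Tpt1-ps3* (0.83, a pseudogene that may share reads with *Tpt1*), *Trim47* (0.82) and *Glmp* (0.82). *Myl9* encodes the regulatory light chain of smooth muscle myosin. For *Abcc9* they were *Gm45533* (0.76), *Vsp35l* (0.76), *Mrpl9* (0.73), *Sptlc1* (0.65) and *Hibch* (0.65), none of which is on a mural list used here.

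The promoters of *Acta2* and *Cnn1* are shown because these genes varied together. Serum response factor, which drives contractile genes, binds the CArG box, CC followed by 6 bases of A or T and then GG. RefSeq (GRCm38.p6) promoters of 300 bases, 250 before the start and 50 from it, were at hand for 7 of the 10 members. The start is that of RefSeq, and motif positions are counted from it. The counted genes begin elsewhere within the windows shown, *Acta2* at 34255336 and *Cnn1* at 22099216. No CArG box was found on either strand in any of the 7, where 1.63% of 32851 promoters hold one, and neither was the RBPJ motif of Notch signalling, GTGGGAA, which 6.38% hold. With at most 1 of the 6 inner bases other than A or T, a form chosen after the data were seen, *Acta2* held a pair of matches, CCCTATATGG at bases -84 to -75 and CCTTGTTTGG at bases -34 to -25 from the start, and the other 6 members none, where 9.98% of all promoters hold one. The sequences are given 5′ to 3′ on the strand of the gene, *Acta2* from the minus strand at chr19:34255324-34255623 and *Cnn1* from the plus strand at chr9:22099003-22099302, with these matches in capitals.
Acta2 promoter: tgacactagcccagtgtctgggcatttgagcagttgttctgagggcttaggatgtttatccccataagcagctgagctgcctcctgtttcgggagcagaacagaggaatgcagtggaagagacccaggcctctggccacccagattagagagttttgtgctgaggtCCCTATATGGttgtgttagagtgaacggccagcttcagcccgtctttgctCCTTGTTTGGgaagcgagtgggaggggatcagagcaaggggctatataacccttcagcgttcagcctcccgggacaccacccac
Cnn1 promoter: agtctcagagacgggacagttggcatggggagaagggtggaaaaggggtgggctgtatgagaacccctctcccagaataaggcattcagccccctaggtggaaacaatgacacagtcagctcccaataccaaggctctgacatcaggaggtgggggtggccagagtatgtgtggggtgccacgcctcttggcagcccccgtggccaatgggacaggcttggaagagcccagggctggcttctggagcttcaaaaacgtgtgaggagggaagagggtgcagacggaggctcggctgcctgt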

How the data were processed

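Poly(A) RNA of 24 libraries, 6 per group, was sequenced. The authors mapped reads to the Ensembl mouse genome and annotation (aligner and build not given in the sources used here), and the submitters' processing notes name featureCounts 1.5.0-p3 and DESeq2 1.20.0. The deposited counts are raw reads per gene, and the deposited FPKM values are those reads per gene length and library size. The 4 deposited tables, which also hold the authors' own fold changes and *P* values (not used), were joined by Ensembl identifier to 33981 genes. Shared libraries were the same in every table, and 48 columns of normalized counts and 8 of group means were not used. Positions were checked against GENCODE M21 (97.55% the same, 8 of 10 members, *Acta2* and *Notch3* differing at an end).

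Counts were filtered with filterByExpr (minimum count 10, total 15), scaled by TMM and tested with edgeR 4.0.16 (R 4.3.3, two-sided quasi-likelihood, robust, libraries of the groups compared only, all 4 groups for the interaction), adjusted by Benjamini-Hochberg over every tested gene, with a threshold of 0.05. The script was tested on simulated data. SEs were taken from the fold change and F statistic. Correlations used log2(CPM + 1), 100000 permutations within groups and Python 3.11.15. Alternatives were DESeq2 1.42.0, no scaling, upper-quartile scaling, other count filters, limma 3.58.1 on log2(FPKM + 1) and log2(FPKM + 0.1), a single fit of the 4 groups, the library number as a block, unadjusted *P*, and each library left out. *Tagln* had too few counts to be tested in libraries with totals of 15922919 to 24865998, and counts carry no molecular identifiers. No batch was given. All members were named, with at most 3 called genes of each further list by absolute log2 fold change in NT + Stroke vs NT + Sham, and the 5 genes most like *Acta2* and *Abcc9*; other genes of these lists were named after their values were seen. The members, the 16 further lists and the tests were chosen with earlier results of these data known.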

Additional observations from a re-analysis of the deposited data

Results flagged for a closer look

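Of 40 pairs of a member and a group, 1 held a library far from the others of its group by Dixon's criterion for 6 values, where chance gives about 1 in 20 groups. *Kcnj8* was 5.56 CPM in HT + Stroke library 2, against 3.97 to 4.36 CPM in the other 5 libraries of the group (gap over range 0.750). NT + Sham held a like value in 1 library, 5.58 CPM.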

How the results depend on the processing

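With 1 library left out at a time, the members called higher numbered 2 to 4 in NT + Stroke vs NT + Sham, 1 to 3 in HT + Stroke vs NT + Sham and 0 to 1 in HT + Stroke vs HT + Sham, and 0 in the other comparisons. Of all genes tested in those fits, 12.8% to 14.6%, 4.71% to 10.4% and 0.0355% to 2.67% were called higher in the comparisons named, in that order. The single call in HT + Stroke vs NT + Sham was *Notch3*, without NT + Sham library 1 or HT + Stroke library 4. With an unadjusted *P* under 0.05, 4 members were higher in HT + Stroke vs NT + Sham (*Pdgfrb*, *Des*, *Acta2* and *Notch3*), where 15.7% of all genes were, and 2 in HT + Stroke vs HT + Sham (*Pdgfrb* and *Kcnj8*), where 10.5% were. With all 4 groups in one fit, 1 was higher in HT + Stroke vs HT + Sham (*Pdgfrb*), where 4.76% of all genes were. The genes called there in either direction went from 108 to 1125 (907 with DESeq2). No setting reversed a called fold change. Without scaling, *Rgs5* in NT + Stroke vs NT + Sham was 0.06 on the log2 scale, where the median of all genes was also 0.06. Without HT + Stroke library 1, 1 further contractile and 1 further pericyte gene were called higher in HT + Stroke vs HT + Sham, where 2.67% of all genes were. Without that library, 2 PDGF and Notch genes were called higher in HT + Stroke vs NT + Sham, where 10.4% of all genes were. The cause of these changes was not tested. Low counts limit *Tagln*, *Cnn1* and *Kcnj8* most. Library numbers run from 1 to 6 in every group. The deviations from the group means of same-numbered libraries had an r over 0.1 in 15 of 36 pairs (r of -0.55 to 0.44, median 0.08, across 13412 genes). In 12 of these 36 pairs, the library was closest to the one of its own number in the other group. No chance level was computed for these counts, so they do not decide whether the numbers pair the libraries. With the library number as a replicate block, a setting chosen after the data were seen, 4 members were higher in NT + Stroke vs NT + Sham (*Acta2* in addition, adjusted *P* = 0.0360 by edgeR) and 2 in HT + Stroke vs NT + Sham. Of all genes, 15.4% and 3.34% were called higher there. The genes called in either direction went from 4365 to 4636 and from 2470 to 770, and from 108 to 46 in HT + Stroke vs HT + Sham.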
